A study of Mus musculus with 24 samples.

Results

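The genes examined here carry out antigen presentation by the major histocompatibility complex (MHC). They are H2-K1, H2-D1, B2m, Tap1 and Nlrc5 of the class I pathway, and H2-Aa, H2-Ab1, H2-Eb1, Cd74 and Ciita of the class II pathway. Members were matched to their rows by gene symbol alone, and each of the 10 symbols matched 1 row among the 48709 genes of the count table. All 10 are protein-coding. No member passed the exposure cutoff in either tissue when both sexes were fitted together. By the median log2 deviation of a class from its tissue median, the largest departures were those of 3 libraries. The control male cortex library V24 was the highest of its tissue for every class I member. The control male blood library V22 was the highest of blood for every class I member. The nPM female blood library V3 was the lowest of blood for every class II member.

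In class I presentation, peptides cut in the cytosol are pumped into the endoplasmic reticulum by a transporter that contains Tap1 and are loaded on a heavy chain such as H2-K1 or H2-D1, which pairs with the invariant light chain B2m (β2-microglobulin) and travels to the surface of almost every nucleated cell. In class II presentation, an alpha and a beta chain (H2-Aa with H2-Ab1 form the I-A molecule, and H2-Eb1 is the beta chain of I-E) assemble with Cd74, the invariant chain, and carry peptides from endosomes to the surface of B cells, dendritic cells and macrophages. The alpha chain gene of I-E carries a pseudogene symbol here (H2-Ea-ps), so H2-Eb1 values are RNA levels and no measure of I-E at the surface. Ciita and Nlrc5 are related coactivators that switch on class II and class I genes respectively, on a promoter platform shared by both classes, and interferon-γ raises both. In the developing brain class I molecules are made by neurons as well as glia, and class II transcripts are scarce and come mainly from microglia and border macrophages.

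The study asked how breathing traffic-related nanoparticles (nPM, nanoscale particulate matter) during pregnancy affects the blood and cerebral cortex transcriptomes of newborn mice. The dams breathed re-aerosolized nPM or filtered air for 5 h on 3 days a week, starting on gestational day 2 and ending at birth. The labels give the dose as 300 mg/m3, where the study's methods give the same number in μg/m3. The methods name no transgene or engineered deletion. The labels name the strain C57BL/6J and the methods C57BL/6NJ, and the age was 3 to 5 days by the labels and day 5 by the methods. Each tissue gave 12 ribosome-depleted libraries, 3 for each sex and exposure, which came from different litters according to the methods. The labels do not tie a blood library to the cortex library of the same pup. Of the 12 blood libraries, the control female V2 was left out here. The study dropped 1 blood library for its count distribution without naming it, and V2 was inferred to be that library from its number of detected genes and its globin share, so that blood held 6 nPM and 5 control libraries and cortex 6 of each.

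Depth limited the low members. Counts summed to 22301409 to 33804371 in the cortex libraries, with 25100 to 25940 genes detected, and to 13595647 to 21895536 in the 11 blood libraries, with 13254 to 17273 genes detected. Globin transcripts took 66.2% to 76.8% of the blood counts against at most 0.0680% in cortex, and the RNA integrity number (RIN) of the blood samples, 7.5 to 9.3, was below the 9.4 to 9.9 of the cortex samples. For a gene with no read counted, the limit of 3 counts stood at 0.0887 to 0.135 CPM (counts scaled by the library total) for cortex, and at 0.137 to 0.221 for blood, counting error only. The tissue labels held up against markers, since 8 cortical neuron genes summed to 7858 to 9744 CPM in cortex and 0.154 to 44.4 CPM in blood, and 8 red cell genes to 695528 to 791374 CPM in blood. V2 stood apart with 22461 genes, 50.1% globin and 4448 CPM of 6 meningeal and fibroblast markers, which summed to 13.3 to 52.4 CPM in the other blood controls.

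Because H2-K1, H2-D1 and B2m moved together across the cortex libraries, and the class II chains across the blood libraries, the upstream stretches searched for the shared control motifs of these genes are shown first. The set of RefSeq promoters used here (GRCm38.p6, which has mm10 coordinates) held an entry for 6 of the 10 members, not for H2-Ab1, Ciita or Nlrc5 among others. The 200 bases before each start were searched on both strands. Capitals mark matches to 7 motifs: CCAAT (Y box core, ATTGG on the reverse strand), AGCAAC (X1 box core), TGACG (X2 box core, CGTCA on the reverse strand), GGGGATTCC (a kappa B element), GAAANNGAA (interferon-stimulated response core), TTCNNNGAA (GAS) and GAANNGAAA (reverse TTTCNNTTC, an interferon response motif added after the sequences were seen, which can overlap the other interferon core). Stretches annotated as exons are left out, which leaves 146 bases for H2-Eb1, and the Tap1 window, whole in exons of Tap1 and Psmb9, is not shown. The H2-D1 window also lies whole in annotated exons of H2-D1 itself, and only the 30 bases that span its first pair of matches are shown, for comparison with H2-K1. The stretches are chr17:34000348-34000547 (minus strand) for H2-K1, chr17:35262923-35262952 (plus) for H2-D1, chr2:122147487-122147685 (plus) for B2m, chr17:34287824-34288023 (minus) for H2-Aa and chr17:34305721-34305866 (plus) for H2-Eb1.
H2-K1: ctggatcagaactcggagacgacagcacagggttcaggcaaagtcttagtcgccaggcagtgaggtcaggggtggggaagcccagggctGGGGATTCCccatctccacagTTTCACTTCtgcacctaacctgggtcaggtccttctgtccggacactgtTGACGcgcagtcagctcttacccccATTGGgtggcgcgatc
H2-D1: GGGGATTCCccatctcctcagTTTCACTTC
B2m: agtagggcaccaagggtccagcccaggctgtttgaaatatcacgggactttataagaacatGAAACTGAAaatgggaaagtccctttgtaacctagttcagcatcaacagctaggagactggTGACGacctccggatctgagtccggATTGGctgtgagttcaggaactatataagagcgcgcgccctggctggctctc
H2-Aa: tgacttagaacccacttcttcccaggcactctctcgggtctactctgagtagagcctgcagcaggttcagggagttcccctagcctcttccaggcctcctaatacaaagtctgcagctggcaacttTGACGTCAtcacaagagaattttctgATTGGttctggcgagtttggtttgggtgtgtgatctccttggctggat
H2-Eb1: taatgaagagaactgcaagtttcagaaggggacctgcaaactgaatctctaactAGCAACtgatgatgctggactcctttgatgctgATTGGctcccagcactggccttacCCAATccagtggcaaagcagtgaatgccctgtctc

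H2-K1 held GGGGATTCC at 111 to 103 bases upstream, TTTCACTTC at 90 to 82, TGACG at 41 to 37 and ATTGG at 16 to 12. H2-D1 held the same 4 in the same order, at 171 to 163, 150 to 142, 101 to 97 and 76 to 72, and a further CCAAT at 53 to 49. The H2-K1 and H2-D1 windows were identical at 127 of 140 aligned bases (90.7%). B2m held GAAACTGAA, an interferon core, at 139 to 131, with TGACG and ATTGG at 78 to 74 and 53 to 49. H2-Aa held overlapping TGACG and CGTCA matches at 74 to 67 and ATTGG at 48 to 44, and H2-Eb1 held AGCAAC at 92 to 87, ATTGG at 59 to 55 and CCAAT at 35 to 31. Tap1 held TGACG at 86 to 82. Of all 32817 RefSeq windows of this length, 0.155% (51 windows) held GGGGATTCC, against 29.3% with CCAAT, 15.6% with TGACG, 10.2% with AGCAAC, 5.56% with GAAANNGAA, 5.48% with TTCNNNGAA and 4.99% with GAANNGAAA. The short motifs are therefore common, and a match is a description of the letters, not evidence of a bound factor.

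In the gene map (mm10), the 5 class I members are H2-K1 (ENSMUSG00000061232, chromosome 17, 33996017 to 34000333, minus strand), H2-D1 (ENSMUSG00000073411, chromosome 17, 35262730 to 35267499, plus), Tap1 (ENSMUSG00000037321, chromosome 17, 34187553 to 34197225, plus), B2m (ENSMUSG00000060802, chromosome 2, 122147686 to 122153083, plus) and Nlrc5 (ENSMUSG00000074151, chromosome 8, 94434356 to 94527272, plus). The class II members are H2-Ab1 (ENSMUSG00000073421, chromosome 17, 34263209 to 34269418, plus), H2-Aa (ENSMUSG00000036594, chromosome 17, 34282744 to 34287827, minus), H2-Eb1 (ENSMUSG00000060586, chromosome 17, 34305877 to 34316199, plus), Ciita (ENSMUSG00000022504, chromosome 16, 10488178 to 10527564, plus) and Cd74 (ENSMUSG00000024610, chromosome 18, 60803848 to 60812646, plus). Tap1 overlaps Psmb9, B2m overlaps Patl2, Ciita overlaps Dexi and Nlrc5 overlaps 9330175E14Rik on the opposite strand. The strand setting of the counting is not given in the sources used here, so reads of these partners cannot be told apart. The class I heavy chains belong to a family of near copies: 9.63% of the 50-base stretches of H2-K1 transcripts and 12.8% of those of H2-D1 occur in another gene, against 0% for B2m, H2-Ab1, H2-Eb1 and Cd74, so the heavy chain counts may depend on how shared reads were placed.

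B2m, the light chain, was the most abundant member per length in both tissues. On the scale of scaled CPM per kilobase of transcript (scaled RPKM), where scaled CPM are counts over the library's total for tested genes after the trimmed mean of M values (TMM) correction, set separately in each tissue, the median level in cortex was 45.5 for B2m (41.7 to 77.0 over 12 libraries), 9.15 for H2-D1 (8.27 to 14.03) and 2.19 for H2-K1 (1.81 to 6.17). Each of these 3 ranges lay apart from the next. Below them came Cd74 at 0.952, Tap1 at 0.513, H2-Eb1 at 0.504, H2-Ab1 at 0.409, H2-Aa at 0.160 and Nlrc5 at 0.136, whose ranges overlapped from one neighbour to the next. Ciita, the class II coactivator, was last at 0.0146 scaled RPKM, with 0 to 6 counts a library and none in V10 and V23, and its range lay below that of Nlrc5.

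In blood Cd74 and H2-Aa stood higher in this order, at ranks 2 and 5 against 4 and 8 in cortex. H2-Eb1, H2-Ab1 and Ciita kept their ranks of 6, 7 and 10. Median scaled RPKM over 11 libraries was 39.0 for B2m (28.9 to 167), 11.03 for Cd74 (3.28 to 13.7), 8.30 for H2-D1 (6.89 to 23.8) and 3.38 for H2-K1 (2.98 to 8.30). The class II chains H2-Aa, H2-Eb1 and H2-Ab1 followed at 2.83, 2.45 and 2.12, ahead of Tap1 at 0.301, Nlrc5 at 0.170 and Ciita at 0.135. Only the range of B2m lay apart from its neighbour in blood.

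**Figure D1:**
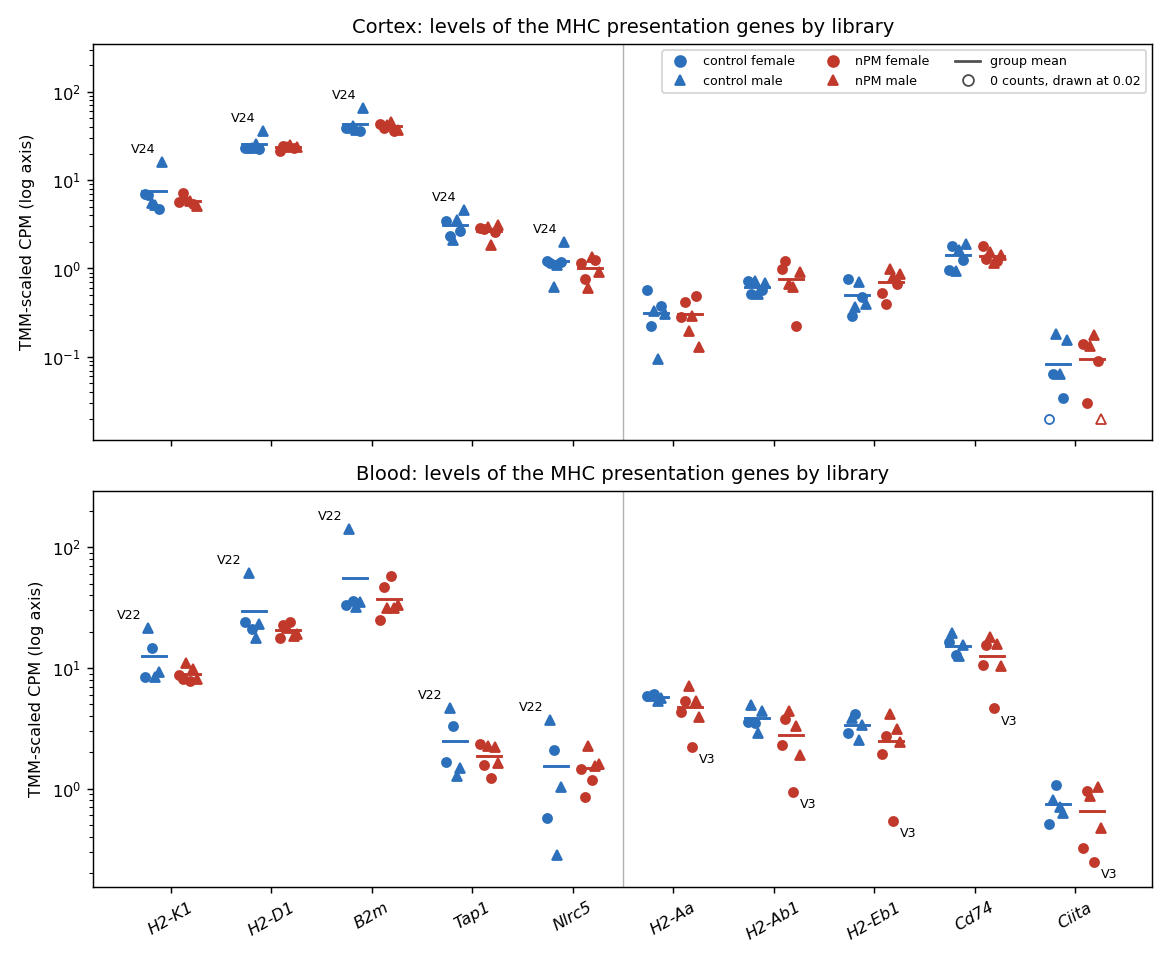
Scaled CPM (log axis) of each member in each cortex library (top, n = 12) and blood library (bottom, n = 11), with control in blue and nPM in red, females as circles, males as triangles and bars at group means, and with open marks at 0.02 for libraries with no counts. V24 sits at the top of all 5 class I members in cortex, V22 at the top of the same 5 in blood, and V3 at the bottom of the 5 class II members in blood, while the nPM and control ranges overlap for every gene.

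Prenatal nPM did not separate the groups for any class I member in cortex. H2-K1 was at 5.08, 5.71 and 7.10 scaled CPM (lowest, median, highest) in the 6 nPM libraries and 4.72, 6.12 and 16.1 in the 6 controls. H2-D1 was at 21.3, 23.9 and 25.3 with nPM and 22.7, 23.3 and 36.2 in controls, and B2m at 36.0, 40.9 and 45.1 with nPM and 35.8, 38.8 and 66.2 in controls. The highest control in all 3 was V24, and the other controls lay within or near the nPM range. With sex and RIN in the fit, the difference (nPM minus control, log2 ± SE) was -0.34 ± 0.245 for H2-K1 (adjusted p = 0.886, edgeR quasi-likelihood test), -0.11 ± 0.0904 for H2-D1 and -0.07 ± 0.116 for B2m. Tap1, the peptide pump, had 1.85 to 3.09 scaled CPM with nPM and 2.08 to 4.56 in controls, a difference of -0.21 ± 0.194. Nlrc5, the class I coactivator, had 0.594 to 1.35 and 0.620 to 2.00, a difference of -0.30 ± 0.271. Without V24 the 5 class I differences shrank to between -0.07 and 0.08, with 2 of them positive.

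The class II members of the cortex were low and likewise overlapped, and H2-Aa and Ciita had libraries at or near the limit of 3 counts. Cd74, the invariant chain, was at 1.40 ± 0.243 scaled CPM with nPM and 1.41 ± 0.421 in controls (mean ± SD, n = 6 each, 25 to 62 counts a library). H2-Eb1 was at 0.393, 0.730 and 0.990 (lowest, median, highest) with nPM and 0.288, 0.438 and 0.764 in controls, on 9 to 30 counts. Its difference was the largest of the class II members, 0.44 ± 0.280 (adjusted p = 0.884). H2-Ab1 differed by 0.29 ± 0.295 on 5 to 40 counts, H2-Aa by -0.05 ± 0.343 on 3 to 15 counts and Cd74 by -0.01 ± 0.211. Ciita had libraries at 0 and was not tested in the fit. Its scaled CPM were 0.0946 ± 0.0682 with nPM and 0.0830 ± 0.0706 in controls.

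In blood every member was lower on average with nPM, by less than the spread between libraries. H2-K1 was at 7.78, 8.49 and 11.03 scaled CPM (lowest, median, highest of 6) with nPM, against control values of 8.37 in V17, 8.49 in V6, 9.35 in V8, 14.5 in V4 and 21.7 in V22. H2-D1 was at 17.8, 20.3 and 24.1 with nPM, against 17.8 in V6, 20.997 in V4, 23.3 in V8, 24.1 in V17 and 61.3 in V22. B2m was at 24.8, 32.4 and 57.4 with nPM, against 31.9 in V6, 33.2 in V17, 35.6 in V8, 36.0 in V4 and 143 in V22. For H2-D1 and B2m the other 4 controls lay inside the nPM range or at its edge, and V22 alone stood above it. The fitted differences were -0.47 ± 0.238 for H2-K1, -0.48 ± 0.273 for H2-D1, -0.51 ± 0.377 for B2m, -0.46 ± 0.322 for Tap1 and -0.16 ± 0.430 for Nlrc5, with an adjusted p of 1.00 for each (edgeR). Without V22 these 5 ran from -0.20 to 0.42, 2 of them positive.

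The class II members in blood differed by similar amounts. Cd74 was at 4.63, 13.03 and 18.2 scaled CPM with nPM, against control values of 12.7 in V6, 12.8 in V4, 15.6 in V8, 16.5 in V17 and 19.3 in V22. H2-Ab1 was at 0.936, 2.81 and 4.39 with nPM, against 2.90 in V6, 3.48 in V4, 3.59 in V17, 4.40 in V8 and 4.92 in V22. H2-Eb1 was at 0.542, 2.58 and 4.14 with nPM, against 2.55 in V6, 2.90 in V17, 3.38 in V8, 3.85 in V22 and 4.16 in V4. The lowest value in each was V3, and the controls lay in the middle and upper part of the range. Differences were -0.45 ± 0.284 for H2-Ab1, -0.46 ± 0.308 for H2-Eb1, -0.28 ± 0.227 for H2-Aa, -0.28 ± 0.253 for Cd74 and -0.18 ± 0.383 for Ciita (5 to 30 counts), and without V3 they ran from -0.30 to -0.05.

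By the cutoff of an unadjusted p under 0.005, which the study used, 0 of 9 members tested in cortex and 0 of 10 in blood passed (edgeR), where 0.614% of all genes tested passed in cortex and 0.17% in blood. No member had an unadjusted p under 0.05 in these fits, where 5.67% of all genes tested did in cortex and 3.11% in blood, and limma voom and DESeq2 also passed 0. The median member difference was -0.07 in cortex (all genes -0.00) and -0.46 in blood (all genes 0.00). The nPM and control ranges overlapped for 10 of 10 members in each tissue, where the ranges of 0.197% of all genes tested in cortex and 0.221% in blood did not overlap. In exact permutation tests of the group means (two-sided, 20 tests, smallest possible p 0.00216 in cortex and 0.00433 in blood), the smallest p was 0.110 for cortex H2-Eb1, followed by 0.143 for blood H2-Ab1. The libraries of a tissue were separate pups by the methods, and the p-values measure the spread among these few. Exposure was given to the dams, and a male and a female of 1 exposure group may share a litter. The sources do not say, so no test took litter into account.

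**Figure D2:**
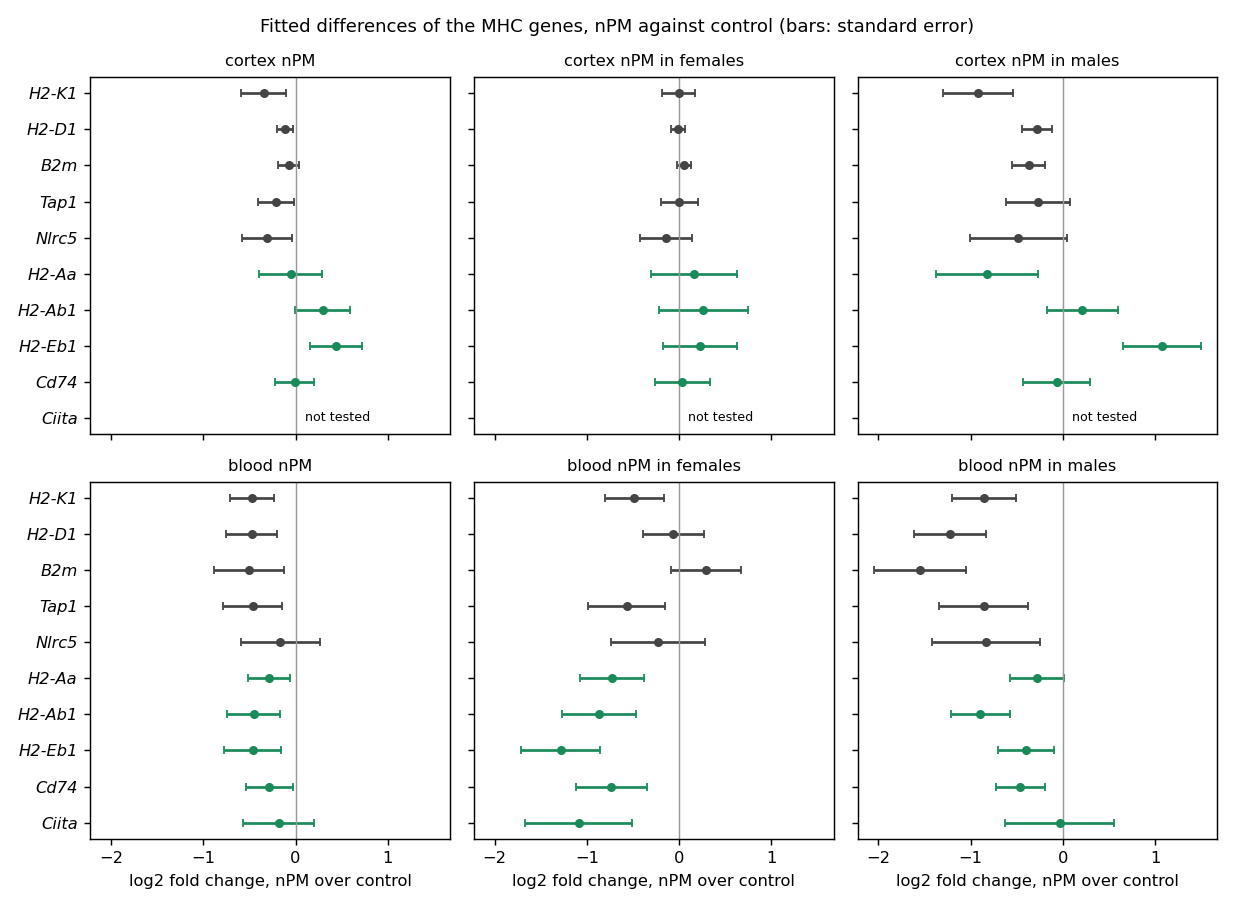
Fitted difference nPM minus control (log2, bars ± SE) for each member in 6 comparisons, class I in dark and class II in green, with both sexes together and each sex alone in cortex and blood. In both sexes together the blood values lie between -0.51 and -0.16, in blood males B2m is lowest at -1.55, in blood females H2-Eb1 is lowest at -1.29, and Ciita was not tested in cortex.

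Fitted by sex, no member passed the cutoff in blood of females, and the class II members had the lowest fitted differences there. H2-Eb1 was at 2.73 scaled CPM in V1, 0.542 in V3 and 1.92 in V18, against 4.16 in V4 and 2.90 in V17, so that all 3 nPM values lay below both controls. H2-Aa was at 5.30, 2.22 and 4.32 in V1, V3 and V18, against 6.13 and 5.86 in V4 and V17, again without overlap. These were 2 of 10 members without overlap, where 19% of all genes tested had none at 3 against 2 libraries. H2-Ab1 was at 3.79, 0.936 and 2.29 against 3.48 and 3.59, and Cd74 at 15.6, 4.63 and 10.5 against 12.8 and 16.5, and in both V1 overlapped the controls. Differences were -1.29 ± 0.428 for H2-Eb1 (adjusted p = 0.573), -0.87 ± 0.404 for H2-Ab1 (adjusted p = 0.611) and -0.73 ± 0.343 for H2-Aa (adjusted p = 0.611). Cd74 differed by -0.74 ± 0.385, Ciita by -1.09 ± 0.584 and the class I members by -0.57 to 0.29.

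By edgeR 0 of 10 members passed the cutoff in blood of females, where 0.745% of all genes tested did. At an unadjusted p under 0.05 there were 3, H2-Aa, H2-Ab1 and H2-Eb1, where 8.11% of all genes tested were, and limma voom passed 1, H2-Eb1, and DESeq2 0. The count rested on single libraries. Without V18 the class II differences ran from -2.04 to -1.10 and 4 passed, but 762 of 11281 genes tested also passed in that fit. Without V3 the class II differences ran from -1.003 to -0.28 and 0 passed, where 98 of 11540 genes tested did. V3 and V18 both had a RIN of 7.6, against 9.0 in V1, and the controls had 8.2 in V4 and 7.5 in V17.

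In blood of males no member passed the cutoff either, and the lowest fitted differences were those of B2m and H2-D1, which V22 decided. B2m was at 31.3 scaled CPM in V5, 33.5 in V7 and 31.2 in V21, against 31.9 in V6, 35.6 in V8 and 143 in V22. H2-D1 was at 18.6, 19.3 and 21.4 in the nPM males, against 17.8, 23.3 and 61.3 in V6, V8 and V22, and H2-K1 at 9.83, 8.13 and 11.03 against 8.49, 9.35 and 21.7. In each gene V6 and V8 overlapped the nPM values or lay close to them, and V22 was the only library far above. H2-Ab1, a class II chain, was at 3.32, 1.90 and 4.39 in the nPM males against 2.90, 4.40 and 4.92 in V6, V8 and V22, with overlap. Differences were -1.55 ± 0.497 for B2m, -1.22 ± 0.389 for H2-D1, -0.85 ± 0.348 for H2-K1 and -0.90 ± 0.318 for H2-Ab1, with an adjusted p of 1.00 for each.

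By edgeR 0 of 10 members passed the cutoff in blood of males, where 0.33% of all genes tested did. These 4 had an unadjusted p under 0.05, where 3.86% of all genes tested did, and limma voom passed 0 and DESeq2 1, H2-D1. Without V22 the class I differences ran from -0.29 to 0.70, 2 of them positive. Without V8, which leaves V22 as 1 of only 2 controls, they ran from -2.27 to -1.45. In that fit 4 were past the cutoff, where 54 of 11222 genes tested were.

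The difference between the sexes in the blood response was tested as an exposure-by-sex term (male effect minus female effect). B2m gave -1.50 ± 0.674 (adjusted p = 0.454) and H2-Eb1 1.34 ± 0.595 (adjusted p = 0.454). Ciita gave 1.51 ± 0.778 (adjusted p = 0.492) and H2-D1 -0.84 ± 0.532 (adjusted p = 0.553). None of 10 members passed the cutoff by edgeR, limma voom or DESeq2, where 0.902% of all genes tested did by edgeR, and B2m and H2-Eb1 had an unadjusted p under 0.05, where 10.7% did.

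In cortex of males H2-K1 and H2-Eb1 were the only members with an unadjusted p under 0.05, where 4.51% of all genes tested had one (edgeR). H2-K1 was at 6.14 scaled CPM in V13, 5.78 in V15 and 5.08 in V23 with nPM, against 5.50 in V14, 5.29 in V16 and 16.1 in V24. H2-Eb1 was at 0.990, 0.792 and 0.869 in the nPM males, against 0.364, 0.701 and 0.400 in the controls. For H2-Eb1 all 3 nPM males lay above all 3 controls, on 10 to 30 counts a library, which made it 1 of 9 members without overlap, where 9.17% of all genes tested had none. For H2-K1 only V24 stood apart. The differences were -0.92 ± 0.376 for H2-K1 and 1.08 ± 0.423 for H2-Eb1, with an adjusted p of 0.962 for both. B2m differed by -0.37 ± 0.176 (adjusted p = 0.962), from 42.5, 45.1 and 37.4 scaled CPM with nPM and 40.5, 36.8 and 66.2 in V14, V16 and V24. None of 9 members passed the cutoff by edgeR, limma voom or DESeq2, where 0.318% of all genes tested did by edgeR. Without V24 the class I differences ran from -0.03 to 0.36, and without V14 from -1.32 to -0.48. In the fit without V14, 3 were past the cutoff (H2-K1, B2m and H2-D1), where 214 of 21960 genes tested were.

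In cortex of females the class I values were close between groups. H2-K1 was at 5.65 scaled CPM in V9, 7.10 in V11 and 5.43 in V20, against 6.95 in V10, 6.74 in V12 and 4.72 in V19. B2m was at 42.8, 39.3 and 36.0 in the nPM females, against 38.8, 38.9 and 35.8 in the controls. Member differences ran from -0.14 to 0.26 and 0 of 9 passed the cutoff by edgeR, limma voom or DESeq2, where 4.02% of all genes tested did by edgeR, and 0 had an unadjusted p under 0.05, where 15.4% did. In the exposure-by-sex term of cortex 0 of 9 passed and 0 had an unadjusted p under 0.05, where 1.35% and 9.68% of all genes tested did, and the term was -0.80 ± 0.492 for H2-K1 (adjusted p = 0.625) and 0.58 ± 0.594 for H2-Eb1 (adjusted p = 0.792).

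Between the sexes, with exposure and RIN in the fit, H2-Aa was lower in cortex of males, by a difference that missed the cutoff. H2-Aa had 0.394 ± 0.130 scaled CPM in 6 female libraries and 0.225 ± 0.0989 in 6 male libraries, on 3 to 15 counts, and differed (male minus female) by -1.07 ± 0.384 (adjusted p = 0.797). It was the only cortex member with an unadjusted p under 0.05, where 6.09% of all genes tested had one, and the other 8 differed by -0.14 to 0.20. Of the members 0 of 9 passed in cortex, where 0.518% of all genes tested did, and 0 of 10 in blood, where 0.351% did (edgeR), and limma voom and DESeq2 also passed 0 in each. In blood the sex differences ran from -0.08 to 0.78, with a median of 0.24 (all genes 0.03) and no unadjusted p under 0.05, where 4.54% of all genes tested had one.

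The exposure differences of H2-D1 and B2m differed between sequencing lanes. The cortex was run on lane 2 (4 nPM and 4 control libraries) and lane 3 (2 and 2), and V24 was on lane 3. As mean log2(scaled CPM + 0.5), nPM minus control, H2-K1 differed by 0.01 in lane 2 and -0.69 in lane 3, H2-D1 by -0.01 and -0.28, and B2m by 0.13 and -0.40. The cortex H2-Eb1 difference was 0.19 and 0.43, positive in both lanes. In blood (lane 1 with 4 nPM and 3 control libraries, lane 3 with 2 and 2 including V22), H2-D1 differed by 0.03 in lane 1 and -0.96 in lane 3 and B2m by 0.25 and -1.30, while H2-K1 differed by -0.30 and -0.44, Tap1 by -0.16 and -0.26 and Nlrc5 by 0.28 and 0.12. In cortex Tap1 differed by -0.10 in lane 2 and -0.27 in lane 3, and Nlrc5 by -0.06 and -0.39. The 5 class II members of blood were lower with nPM in both lanes, H2-Eb1 by -0.64 and -0.20, H2-Ab1 by -0.56 and -0.35, and Cd74 by -0.35 in each. With 2 libraries a group no test was run within lane 3.

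**Figure D3:**
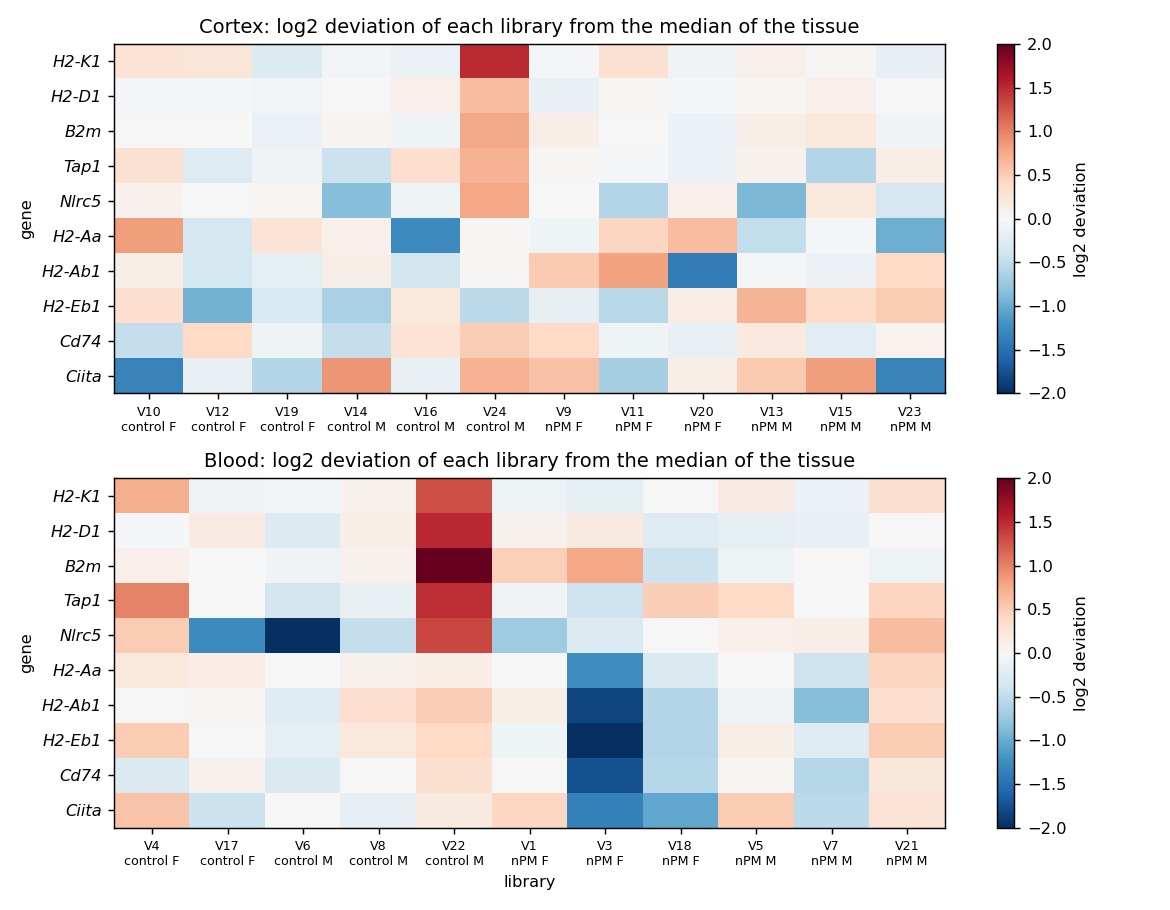
Deviation of each member in each library from its tissue median, as log2(scaled CPM + 0.05), coloured from -2 (blue) to 2 (red), with libraries ordered by tissue, exposure and sex. The class I genes are raised together in V24 of cortex and in V22 of blood, and the class II genes are lowered together in V3 of blood.

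Some members of 1 class moved together from library to library, and others did so only loosely. In blood the Pearson correlation of log2(scaled CPM + 0.5) over 11 libraries was 0.97 for H2-Ab1 with Cd74, 0.96 for H2-Aa with H2-Eb1, 0.94 for H2-D1 with B2m and 0.93 for H2-K1 with Tap1. It was lower for other class I pairs, down to 0.49 for B2m with Tap1 and with Nlrc5, and it was -0.10 for B2m with H2-Aa across the classes. In cortex over 12 libraries it was 0.89 for H2-K1 with B2m, 0.87 for H2-K1 with H2-D1 and 0.85 for H2-D1 with B2m, against 0.42 for B2m with Tap1 and 0.39 for Tap1 with Nlrc5. The cortex class II genes, on few counts, did not move as a block, and H2-Aa with Cd74 gave -0.58. These are descriptions over libraries that share their normalization, and V22, V3 and V24 are their extreme points. V22 was 4.27-fold above the blood median for B2m, and V24 was 2.82-fold above the cortex median for H2-K1.

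The class II level of blood followed B cell markers. The mean of H2-Aa, H2-Ab1, H2-Eb1 and Cd74 had a Pearson r of 0.933 and a Spearman rho of 0.736 with the mean of 7 B cell markers (Cd79a, Cd79b, Ms4a1, Pax5, Blnk, Vpreb3 and Ebf1) over 11 libraries, r = 0.714 without V3 and V22, and r = 0.925 within lane 1 (7 libraries). Against 8 T and NK cell markers r was 0.709. In V3 the 7 B cell markers summed to 8.86 CPM, against 17.6 to 39.3 CPM in the other 10 libraries. By group the sums were 8.86 to 37.8 CPM with nPM and 19.5 to 39.3 CPM in controls. In blood of females the B cell markers also had 7 of 7 negative differences with nPM (median -0.86). The T and NK cell markers had 8 of 8 (median -0.86), and the median over all genes was -0.05. By edgeR 0 of either list passed the cutoff, where 0.745% of all genes tested did. An unadjusted p under 0.05 was found by edgeR for 4 B cell markers and 3 T and NK cell markers, where 8.11% of all genes tested had one. By DESeq2 these counts were 0 and 1. Fewer B cells and less RNA per B cell cannot be told apart in bulk blood, and the part of B cell or other lymphocyte content in the class II differences was not tested. It is 1 of 20 such relations computed, between a level of members and a marker list, and its points share libraries and scaling.

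The class I level of the cortex rose with microglia markers, but only weakly once V24 and V20 were left out. The mean of H2-K1, H2-D1 and B2m had r = 0.810 and rho = 0.385 with the mean of 7 microglia markers (P2ry12, Tmem119, Aif1, C1qa, C1qb, C1qc and Trem2) over 12 libraries. Without V24 and V20 r was 0.175, and within lane 2 (8 libraries) it was 0.0821, so the relation rests on those libraries. V24 was the highest library for 7 of 7 microglia markers, with a sum of 151 CPM against 89.0 to 123 CPM in the other 11. The part of microglial RNA in the V24 class I levels was not tested.

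**Figure D4:**
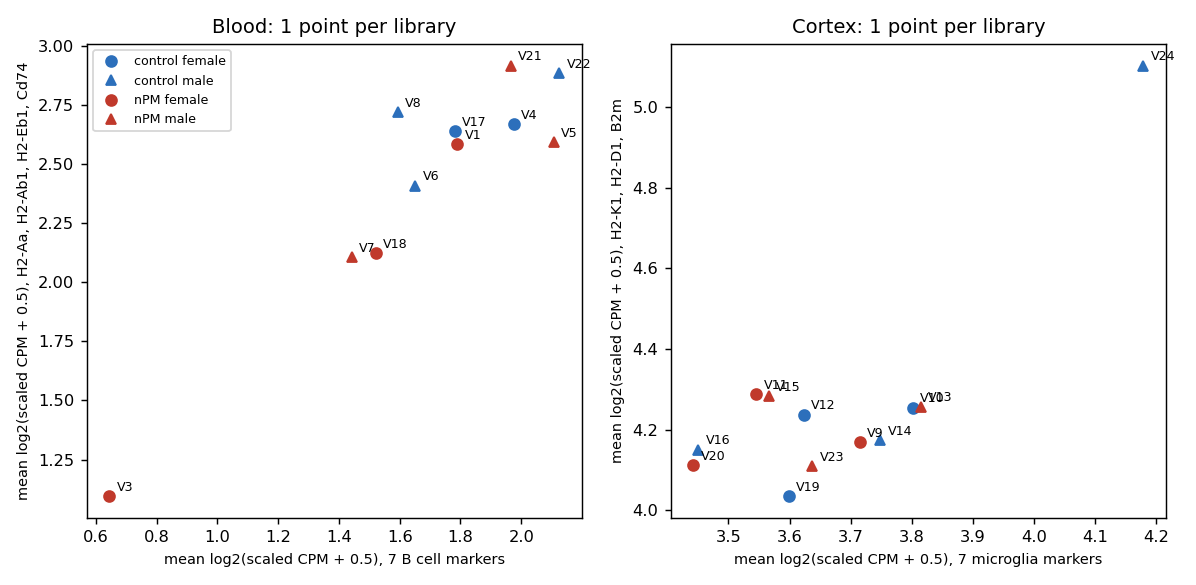
Left, mean log2(scaled CPM + 0.5) of H2-Aa, H2-Ab1, H2-Eb1 and Cd74 in 11 blood libraries against the mean of 7 B cell markers, where V3 is lowest on both axes (r = 0.933). Right, the mean of H2-K1, H2-D1 and B2m in 12 cortex libraries against 7 microglia markers, where V24 is highest on both axes and the other libraries form a cloud (r = 0.810 with all libraries, 0.175 without V24 and V20).

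With TMM scaling, the cortex of control pups was lower than blood for every member tested, and more so for class II than for class I. In plain CPM, per all counts of a library, Cd74 ranged from 0.922 to 1.87 over the cortex libraries and 4.63 to 21.3 over the blood libraries, and H2-Aa from 0.0956 to 0.589 and 2.22 to 8.01, without overlap. H2-D1 ranged from 21.4 to 35.4 in cortex and 13.5 to 67.6 in blood, and B2m from 35.8 to 64.8 and 21.7 to 158, so the cortex ranges lay inside those of blood. The scaling decided how far the tissues differed, and for class I whether they did, since globin filled most of the blood libraries. With TMM (6 cortex and 5 blood controls, sex in the fit), class II differences (cortex minus blood, log2 ± SE) were -8.33 ± 0.188 for H2-Aa, -7.53 ± 0.198 for Cd74, -6.89 ± 0.235 for H2-Eb1 and -6.74 ± 0.187 for H2-Ab1, the least significant with an adjusted p of 7.90e-14. Class I differences were -4.86 ± 0.324 for H2-K1, -4.53 ± 0.473 for Nlrc5, -4.40 ± 0.364 for B2m, -4.28 ± 0.275 for H2-D1 and -3.87 ± 0.318 for Tap1, the least significant with an adjusted p of 1.29e-07 (edgeR). All 9 passed an adjusted p under 0.05 as lower in cortex, where 39.5% of all genes tested did. Ciita had a cortex library at 0 and was not tested.

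With library totals and no TMM factor, the median over all genes moved from 0.24 to 4.69 and the class I direction was lost. H2-K1 was then at -0.44, Nlrc5 at -0.14, B2m at 0.0103, H2-D1 at 0.16 and Tap1 at 0.56, none called, and the 4 class II genes at -3.89 to -2.29 were called lower. With globin genes removed before taking totals the median was 2.76, class I ran from -2.36 to -1.36 and class II from -5.82 to -4.21, and all 9 were called lower. Of the called genes 54.2% were higher in cortex with TMM, 84.3% with globin removed and 93.7% with library totals. A change of scaling shifts all genes by nearly the same amount. The distance of a member from the median gene could therefore hardly change, and its stability is no separate test. Relative to the median gene, class I lay between -5.09 and -4.11 and class II between -8.56 and -6.98 with TMM. With library totals they lay between -5.14 and -4.14 and between -8.59 and -6.98.

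**Figure D5:**
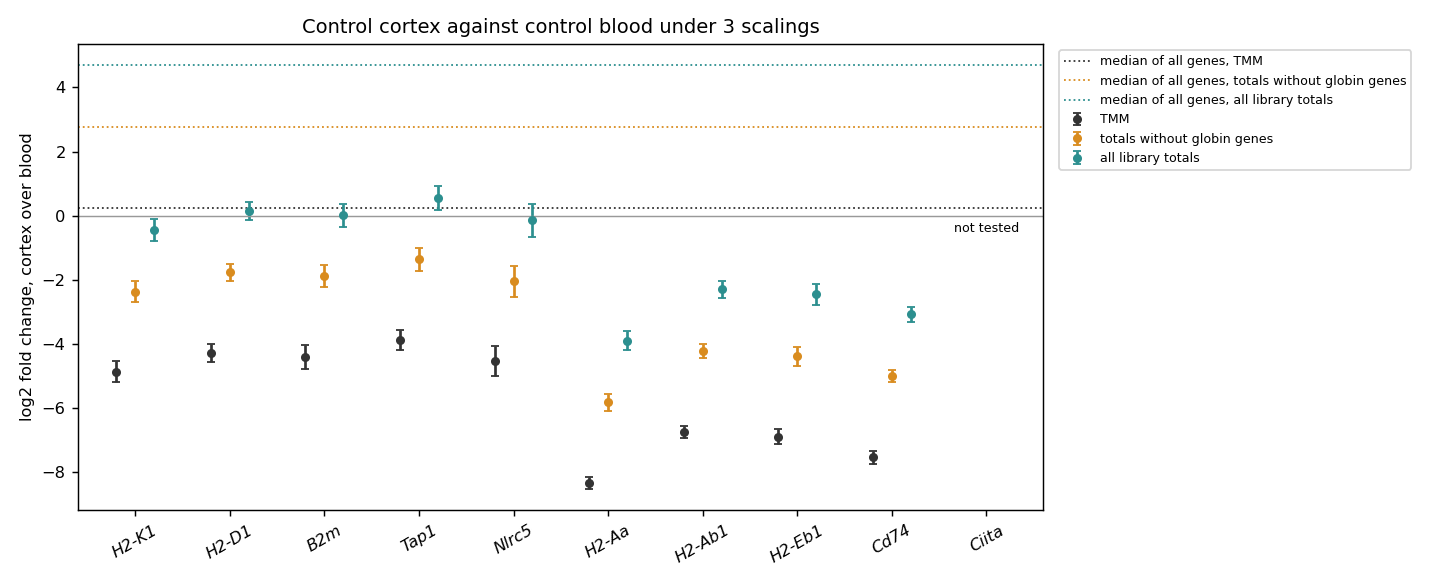
Cortex minus blood difference in controls (log2, bars ± SE) of the 9 members tested, under TMM, totals without globin genes and all library totals, with dotted lines at the median over all genes for each scaling (0.24, 2.76 and 4.69). Each member keeps about the same distance below the dotted line of its scaling, because a change of scaling shifts all genes nearly alike. Class II lies further below than class I. Ciita was not tested.

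Among the other class I and class I-like chains, H2-Q2 rose with nPM in cortex of females. Of 20 on the list 14 were tested in cortex and 12 in blood, and 0 passed with both sexes together in either tissue by edgeR, limma voom or DESeq2, with 1 under an unadjusted p of 0.05 in each tissue by each tool. Over all genes 0.614% passed in cortex and 0.17% in blood, and 5.67% and 3.11% had an unadjusted p under 0.05. In the fits by sex 1 of 14 passed in cortex of females and 1 of 14 in cortex of males, where 4.02% and 0.318% of all genes did. H2-Q2, a class I gene of the Qa region, was at 2.46 scaled CPM in V9, 1.96 in V11 and 2.67 in V20 with nPM, against 1.41 in V10, 0.959 in V12 and 0.780 in V19. All 3 nPM females lay above all 3 controls, where 21.6% of all genes tested had groups without overlap. The difference was 1.29 ± 0.231 (adjusted p = 0.0218). In males H2-Q2 was at 1.75, 1.29 and 2.16 with nPM against 1.57, 1.34 and 1.94, a difference of 0.13 that missed the cutoff. The exposure-by-sex term of -1.24 ± 0.382 (adjusted p = 0.362) also missed it by edgeR. In that term 1 of 14 genes of the list passed by limma voom, where 267 of 20857 genes tested did, and 0 passed by edgeR or DESeq2. H2-Q2 shares 16.1% of its 50-base stretches with other genes. H2-Q7 was lower in cortex of males by -2.18 ± 0.591 (adjusted p = 0.962) on 1 to 13 counts, which passed the cutoff here, in 1 of 8 other settings and in 0 of 6 fits without 1 library, and it shares 26.5% of its stretches.

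Among the 12 genes of class I peptide supply and loading, 0 passed in cortex or blood with both sexes together (edgeR, limma voom or DESeq2). By each tool 1 had an unadjusted p under 0.05 in cortex and 0 in blood, against 5.67% and 3.11% of all genes. In cortex of females 1 of 12 passed, where 4.02% of all genes did. Psme1, a subunit of the proteasome activator PA28, passed in cortex of females, at 45.6, 51.2 and 54.3 scaled CPM in V9, V11 and V20 against 41.0, 42.0 and 39.9 in V10, V12 and V19. All 3 nPM females were higher, where 21.6% of all genes tested had groups without overlap. The difference was 0.30 ± 0.0678 (adjusted p = 0.0565), and it passed the cutoff in 3 of 6 fits without 1 library. The list's most abundant genes per length were the chaperones Calr and Canx, at 144 and 126 scaled RPKM in cortex and 13.3 and 3.33 in blood (medians).

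The genes of class II peptide loading (10 tested in each tissue), the shared promoter factors Rfx5, Rfxap, Rfxank, Nfya, Nfyb, Nfyc and Creb1 (7 tested), and interferon signalling upstream of Ciita and Nlrc5 (13 tested in cortex and 12 in blood) had 0 past the cutoff in any of the nPM comparisons by edgeR, limma voom or DESeq2, where edgeR passed between 0.17% (blood, both sexes) and 4.02% (cortex of females) of all genes. With both sexes together, edgeR gave an unadjusted p under 0.05 to 1 promoter factor in cortex and, in blood, to 1 class II loading gene and 2 interferon signalling genes, against 5.67% and 3.11% of all genes. The most abundant per length were the lysosomal proteases Ctsl and Lgmn in cortex (58.8 and 43.5 scaled RPKM, medians), and in blood March8 (9.68), a ubiquitin ligase, and the protease Ctss (4.06). The kinase Jak1 was among the top 2 of the interferon list in both tissues (27.9 in cortex, 4.47 in blood), with the receptor chain Ifngr2 in cortex (30.7) and Jak2 in blood (3.29). Of the promoter factors Nfyc and Rfxap led in cortex (11.3 and 10.3), and Rfxank and Nfyc in blood (0.767 and 0.762).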

How the data were processed

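Total RNA of neonatal blood and cerebral cortex was made into ribosome-depleted libraries. The authors trimmed reads with Trimmomatic, aligned them to mm10 with HISAT2 and counted them per gene with featureCounts (version 1.5.0-p3), and deposited raw counts with no normalization. The strand setting is not given in the sources used here. A gene map deposited beside them holds mean RPKM of the authors, not used here. The closest libraries of a group differed by a chi-square of 8.41 per degree of freedom, so none was counted as a repeat.

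Counts were fitted with edgeR (4.0.16, R 4.3.3): TMM, a floor of 1 count for each gene in all libraries fitted, quasi-likelihood F test, two-sided, Benjamini-Hochberg adjustment over all genes tested. Exposure fits had RIN, and sex where both sexes entered, as covariates, as in the study, and a cutoff of an unadjusted p under 0.005. The tissue fit had sex and a cutoff of an adjusted p under 0.05. SE is the log2 difference over the root of F. As a check of the code, changed genes were recovered in counts simulated from these libraries, for the both-sex exposure fits and the tissue fit. The fits by sex and the by-sex terms were not simulated. The check does not measure the power to find differences in the members. Alternatives were limma voom (3.58.1), DESeq2 (1.42.0), other filters, scalings and covariates, V2 kept, and each library left out. Members and lists were chosen with earlier results of these data known. Named genes are all members, list genes past the exposure cutoff, the 2 most abundant of each pathway list per length, and the 5 genes most like each member group. Of 141 list genes 140 were in the gene map. Some marker genes are not reported here.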

Additional observations from a re-analysis of the deposited data

Results flagged for a closer look

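V24, a control male cortex library, stood far from the other 5 controls for H2-K1 (16.1 scaled CPM, group median 6.12), H2-D1 (36.2, median 23.3) and B2m (66.2, median 38.8). Its gap to the next library was 0.804, 0.802 and 0.847 of the group's range, above the limit of 0.625 for 6 samples. V22, a control male blood library, stood apart in the same way for H2-D1 (61.3 scaled CPM, median 23.3) and B2m (143, median 35.6), with gaps of 0.855 and 0.964 against a limit of 0.71 for 5 samples. Chance flags about 1 in 20 groups, and 5 of the 40 groups examined (10 members, 2 exposures, 2 tissues) were flagged, all from these libraries. The members were measured in the same libraries and some moved together. The 40 groups are therefore not independent, and the 2 shares set side by side are no test. V24 was also highest for 7 of 7 microglia markers. In V22, 6 of 14 other class I chains with a count were at their highest in blood and 0 of the red cell markers were. Both libraries were run on lane 3. The part of cell content, lane or the pup itself in these levels was not tested.

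The control female blood library V2 entered only the alternative fits that kept it. In plain CPM it had more of 6 members than any other blood control. In CPM, Tap1 was at 5.76 in V2 against at most 5.19 in the others, Nlrc5 at 6.33 against 4.10, H2-Aa at 12.9 against 7.81, H2-Ab1 at 10.4 against 5.44, H2-Eb1 at 8.41 against 5.30 and Cd74 at 26.2 against 21.3. The same library had 50.1% globin, against 71.3% (V22) to 76.8% (V6) in the other blood controls. It also had 4448 CPM of meningeal and fibroblast markers. CPM are taken over all counts, so a lower globin share raises the CPM of the other genes. These values therefore do not show more of the members per non-globin count. The part of globin share or fibroblast content in these levels was not tested.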

How the results depend on the processing

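Of 1910 member differences computed under the alternatives, 1881 kept their side of the cutoff and the direction of any called value, 24 newly passed it, 2 lost it and 3 called values changed direction. Among the first, 123 values that did not pass the cutoff took the other sign, in 51 pairs of a member and a comparison. Admitting genes with at least 1 count in any library gave 1 member past the cutoff in cortex with both sexes (H2-K1), 2 in cortex males (B2m, H2-K1), 1 in blood females (H2-Eb1), 3 in blood males (B2m, H2-K1, H2-D1), and 1 each in the by-sex terms of cortex (H2-K1) and blood (B2m), where the fits above gave 0. Blood females also had 1 (H2-Eb1) with limma voom, with lane added and with library totals without TMM, and blood males 1 (H2-D1) with DESeq2. Leaving out 1 library gave 0 to 3 members in cortex males (3 without V14), 0 to 4 in blood females (4 without V18) and 0 to 4 in blood males (4 without V8). In the tissue comparison, library totals without TMM gave 4 members in place of 9, with B2m at 0.0103, Tap1 at 0.56 and H2-D1 at 0.16 changing direction and H2-K1 at -0.44 and Nlrc5 at -0.14 no longer called. Apart from what the scaling itself moves, the cause of these shifts was not tested. Counts of all genes past the cutoff ranged from 113 to 526 for cortex nPM (128 as reported; 68 to 315 without 1 library), 5 to 106 for blood nPM (17; 11 to 37), 724 to 1642 for cortex females (873; 422 to 980), 53 to 418 for cortex males (69; 42 to 214), 10 to 232 for blood females (82; 54 to 762), 13 to 212 for blood males (35; 15 to 65), 81 to 460 for sex in cortex (108; 42 to 427), 9 to 526 for sex in blood (35; 12 to 54), 232 to 787 for the by-sex term of cortex (281; 159 to 403), 64 to 323 for that of blood (90; 26 to 272) and 7875 to 16131 between tissues (8861; 8784 to 9223). The 2 fits on library totals without TMM were chosen after seeing the data. No paired analysis was possible because the labels do not say which libraries share an animal or litter and number the replicates only in accession order. Cortex class II genes rest on 0 to 62 counts a library, which limits the precision of their differences.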

Other observations

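Over the 11 blood libraries, the genes most like the mean of H2-Aa, H2-Ab1, H2-Eb1 and Cd74 were Wdr82 (Pearson r = 0.963), Ms4a1 (0.963), Ighm (0.945), Blk (0.943) and Coro1a (0.943). They come from 6036 genes with a mean of at least 1 scaled CPM, a number that includes members, which were not ranked. Ms4a1, Ighm and Blk are expressed by B cells. Those most like the mean of H2-K1, H2-D1 and B2m were Gbp2 (0.942), Adar (0.893), Gzma (0.879), Rtp4 (0.876) and Trim12c (0.863), and all 5 were highest in V22. Their Spearman rho, which depends less on 1 extreme library, was lower, from 0.182 for Adar to 0.709 for Trim12c. Gbp2, Adar and Rtp4 are known interferon-induced genes and Gzma is a granule protease of NK and T cells.

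Over the 12 cortex libraries, the genes most like H2-K1, H2-D1 and B2m were Gm10925 (0.971), Gm28437 (0.956), Dnajc18 (0.951), Reep2 (0.944) and Gm28661 (0.944), out of 15703, and all 5 were highest in V24. Their Spearman rho ran from 0.497 for Reep2 to 0.902 for Gm28437. For the cortex class II mean, which rests on few counts, the most similar genes were Fkbp14 (0.900), Zfp433 (0.890), Kcnk2 (0.870), Cacna2d3 (0.853) and Abcc4 (0.852). These are the top of a ranked list over few libraries and carry no test.

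Of the marker lists, Dcn, a proteoglycan of fibroblasts and meninges, passed the exposure cutoff in cortex with both sexes (0.62 on the log2 scale, edgeR, adjusted p = 0.493). It was 1 of 6 meningeal and fibroblast markers to pass, where 0.614% of all genes tested did. In cortex females 2 of 6 passed, where 4.02% of all genes tested did. These were Dcn (0.64, adjusted p = 0.0913) and Igf2, a growth factor abundant in meninges (0.29, adjusted p = 0.0680). In blood males Igf2 (2.23, adjusted p = 0.197) and the collagen gene Col3a1 (1.30) passed by edgeR with RIN in the fit, where 0.33% of all genes tested did. Their groups overlapped: Igf2 was at 3.88, 4.77 and 17.9 scaled CPM with nPM (V21, V5, V7), against 3.45, 17.7 and 1.96 in V22, V6 and V8. Col3a1 was at 4.85, 4.35 and 12.8 against 4.34, 10.5 and 3.30. C1qb passed in the by-sex term of blood (3.03, adjusted p = 0.452), on 1 to 24 counts a library, where 0.902% of all genes tested did. H2-Q2, described above in cortex of females, had differences of 1.17 to 1.31 under 8 other settings with an adjusted p of 2.96e-05 to 0.0404, and 1.21 to 1.42 without 1 library, where it passed the cutoff in 6 of 6 fits and had an adjusted p of 0.0447 to 0.122. Psme1 passed the cutoff in 8 of 8 settings and in 3 of 6 fits without 1 library (0.22 to 0.37).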
